A study of Homo sapiens with 12 samples.

Results

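The transcripts described here come from p53 target genes of cell cycle arrest and damage handling: CDKN1A, MDM2, GADD45A, SESN1, BTG2, TP53INP1, FDXR, ZMAT3, PLK2 and XPC. They were chosen by symbol, and every array probe mapped to one of the 10 symbols was used. Probes were found for 8 of the 10 genes, and all 8 had a probe that was detected and tested, among 12290 genes tested in all. BTG2 and FDXR had no probe under their symbols, so their transcripts were not analysed here. The RNA came from cultures of U2OS, a human osteosarcoma line, and was hybridised to 12 Illumina bead arrays. Cells received acetone vehicle alone, ST362 or MEB55, the latter pair being synthetic analogues of the plant hormones strigolactones, each at 5 ppm. Each treatment was given for 6 h or 24 h with 2 replicate arrays per group, so 4 arrays carry each treatment. The study asked which genes respond early and late to the analogues. All groups are of 1 cell line, no group carries an engineered allele, all received the acetone solvent, and the doses match in mass but not in molarity.

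p53 is a transcription factor that is stabilised after DNA damage and other stress and then binds a short response element near its target genes. The element is built of half-sites, and a full site holds a pair of them. CDKN1A encodes p21, the inhibitor of cyclin-dependent kinases through which p53 stops the cell cycle, while MDM2 encodes the ubiquitin ligase that degrades p53 and closes a negative feedback loop. Among the remaining genes are some that encode sensors of stress, repair factors and regulators of growth.

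The levels below are log2 signals after background correction and quantile normalization, and a difference of 1 is a 2-fold difference. A gene was read from its brightest tested probe and was called at an adjusted p under 0.05 (limma, Benjamini-Hochberg over 22186 tested probes). Arrays had median raw signals from 80.7 to 90.4 and detected between 42.7% and 47.4% of probes above the negative control beads. Of the markers checked for the cell type, VIM, COL1A1, SPARC and ALPL were detected on 12 arrays, RUNX2 on 7 and COL1A2 on 1. Of markers of other cells, PTPRC and CD3E were detected on 0 arrays, PECAM1 on 1, CDH1 on 3, CD14 on 6 and EPCAM on 12. The time labels need caution. Within its own treatment, each of the 8 analogue arrays correlated best with one whose time label differed, and not with its replicate. The vehicle arrays at 6 h were likewise nearest to vehicle arrays at 24 h, whereas those at 24 h were nearest to each other. Nearness to arrays of other treatments was not compared. The analogue arrays thus did not pair by time label within a treatment. Whether the labels of some arrays were exchanged was not tested, and every value given for a time is for the arrays labelled with it. The heat shock gene HSPA6 exceeded the vehicle mean by 5.95 and 0.44 on replicates 1 and 2 of ST362 at 6 h, and by 0.20 and 6.51 at 24 h. In MEB55 the same replicates exceeded it by 6.45 and 1.06 at 6 h, and by 0.25 and 7.99 at 24 h. Each analogue was therefore compared with vehicle at the labelled times and also over both times, 4 arrays against 4. The replicates are described as independent experiments, and nothing further about separate cultures is given, so p-values measure the spread between these arrays.

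Over both times, 1 of the 8 genes was called: PLK2, lower following MEB55, where 0.561% of all genes were called. Following ST362, 0 of the 8 were called, where 0.765% of all genes were. The PLK2 call was kept in 6 of 12 fits that each left out 1 array, and was lost with no background correction. CDKN1A was 0.60 above vehicle following ST362 and 0.74 above it following MEB55, and neither difference passed the adjusted test. TP53INP1, SESN1 and MDM2 stood 0.93, 0.49 and 0.50 above vehicle following ST362 and 0.34, 0.05 and 0.15 above it following MEB55, also without a call. GADD45A and ZMAT3 lay within 0.13 of vehicle following both analogues, read from their brightest probes.

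**Figure D1:**
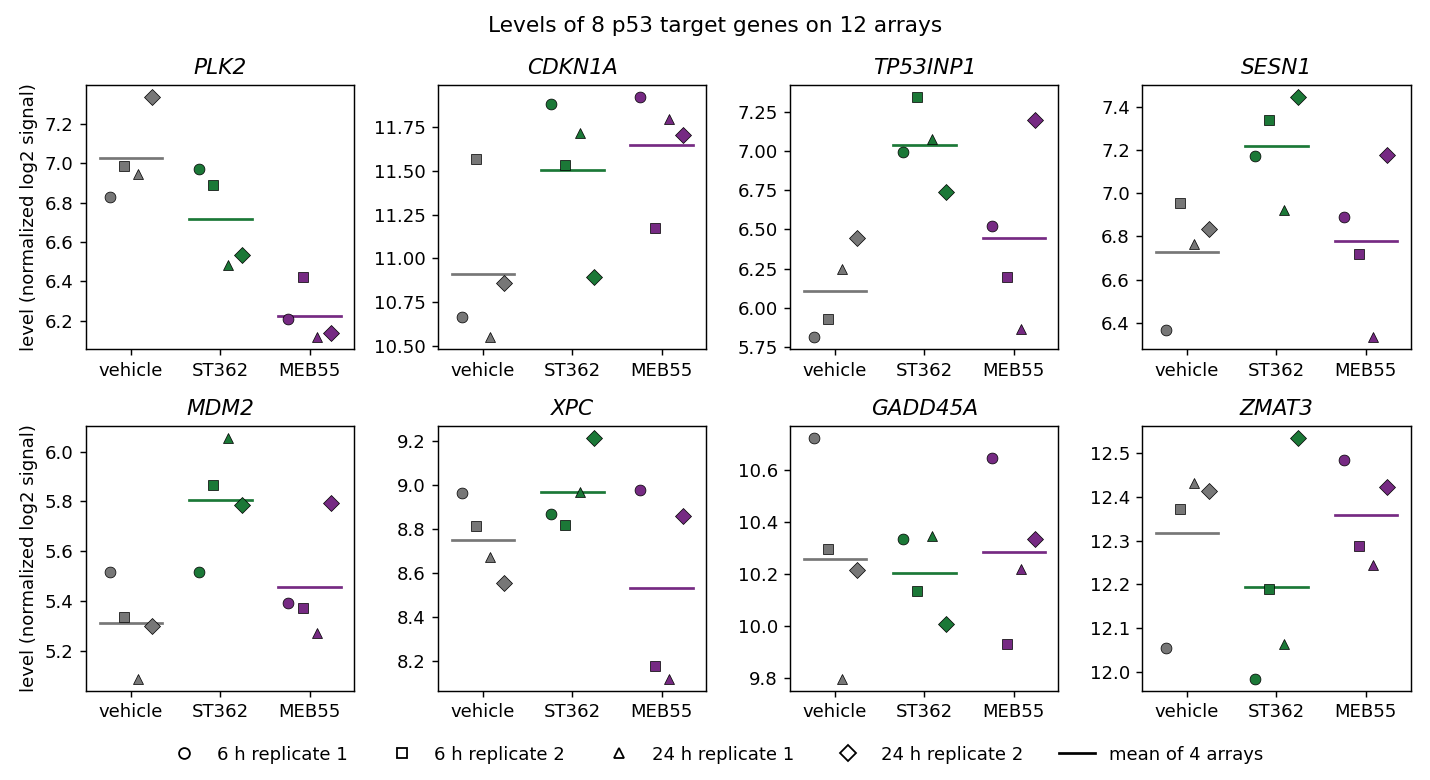
Normalized log2 signal of the 8 measured p53 target genes (vertical axes, one panel per gene with its own range) on the 4 arrays each of vehicle, ST362 and MEB55, with one marker shape per labelled time and replicate and a line at each mean of 4 arrays. The 4 MEB55 arrays of PLK2 lie at 6.12 to 6.42, below every other array, and the 4 ST362 arrays of TP53INP1 lie at 6.74 to 7.35, above every vehicle array.

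Among the genes that act on cell division, PLK2 encodes a polo-like kinase of centriole duplication. The promoter of PLK2 is shown because PLK2 is the gene that was called, and one promoter of SESN1 is shown beside it because it is the other measured member whose promoter held the same element. RefSeq promoters (GRCh38.p14, from 250 bases before to 50 after a transcript start) were searched for the p53 half-site consensus, with no mismatch allowed. The consensus reads the same on both strands. A half-site was held by 6.63% of 35116 promoters and a full site by 0.0285%. PLK2 and SESN1 lie on the minus strand, the windows are chr5:58460037-58460336 and chr6:109008939-109009238, and capitals mark the half-site, whose first base lies at -132 in PLK2 and at -49 in SESN1.
PLK2: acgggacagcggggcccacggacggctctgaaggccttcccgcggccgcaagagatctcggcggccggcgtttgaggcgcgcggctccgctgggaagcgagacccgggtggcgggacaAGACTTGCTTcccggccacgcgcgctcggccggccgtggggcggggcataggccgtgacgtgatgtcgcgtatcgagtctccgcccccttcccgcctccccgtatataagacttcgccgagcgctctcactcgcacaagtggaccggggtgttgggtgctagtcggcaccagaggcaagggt
SESN1: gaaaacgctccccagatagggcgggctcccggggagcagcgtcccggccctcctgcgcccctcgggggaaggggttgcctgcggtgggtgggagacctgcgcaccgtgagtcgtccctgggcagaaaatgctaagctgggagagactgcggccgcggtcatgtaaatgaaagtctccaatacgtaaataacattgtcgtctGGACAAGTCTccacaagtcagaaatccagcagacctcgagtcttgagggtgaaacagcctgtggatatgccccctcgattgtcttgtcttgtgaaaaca
The SESN1 start shown is 1 of 3 in the table, and the other SESN1 windows held no half-site. CDKN1A, MDM2, ZMAT3 and XPC held none in their windows, which says only that these letters are not within them. Sites that differ from the consensus by a base were not searched for, so the lack of a match does not show that a gene lacks a p53 site. Of the genes without a probe, BTG2 held none and FDXR held a half-site at -11 in 1 of 2 windows. GADD45A and TP53INP1 were not in the promoter table. A match describes the sequence and is not evidence of binding.

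PLK2 levels on the vehicle arrays were 6.83 and 6.99 at 6 h and 6.95 and 7.34 at 24 h. On the ST362 arrays they were 6.97 and 6.89 at 6 h and 6.48 and 6.53 at 24 h. On the MEB55 arrays they were 6.21 and 6.42 at 6 h and 6.12 and 6.14 at 24 h. All 4 MEB55 arrays were thus below all 4 vehicle arrays and all 4 ST362 arrays, whereas the ST362 arrays overlapped vehicle at the label of 6 h and lay below it at that of 24 h. That contrast rests on the time labels, since the ST362 arrays high in HSPA6 read 6.97 and 6.53 and the others 6.89 and 6.48. Over both times PLK2 fell by 0.80 following MEB55 (SE 0.15, 95% interval -1.12 to -0.48, adjusted p = 0.0407, n = 4 against 4 in limma), which is 1.75-fold lower. The fall on single arrays was 0.82 and 0.60 at 6 h and 0.91 and 0.89 at 24 h against the vehicle mean, so the MEB55 arrays with little HSPA6 (0.60 and 0.91) and with much (0.82 and 0.89) fell over the same range. The call was lost when any of 6 arrays was left out in turn: replicate 2 of vehicle at 6 h, either replicate of vehicle at 24 h, replicate 1 of MEB55 at 6 h and either replicate of MEB55 at 24 h (adjusted p = 0.0760 to 0.125, limma). It was also lost with no background correction, which gave -0.49, so the size of the fall depends on how the background of this dim probe is treated.

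The PLK2 difference from vehicle following ST362 was -0.31 (95% interval -0.63 to 0.01, adjusted p = 0.404). The direct comparison gave -0.50 for MEB55 minus ST362 (95% interval -0.82 to -0.18, adjusted p = 0.399, limma), which did not pass. Within the labelled times the difference from vehicle was 0.02 at 6 h and -0.64 at 24 h for ST362 (adjusted p = 0.992 and 0.551), and -0.59 at 6 h and -1.02 at 24 h for MEB55 (adjusted p = 0.986 and 0.395). The ST362 difference moved by -0.66 from 6 h to 24 h (95% interval -1.22 to -0.10, adjusted p = 0.999), so no change with time was established at these labels.

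CDKN1A levels were 10.67 and 11.57 on the vehicle arrays at 6 h and 10.55 and 10.86 at 24 h. With ST362 they were 11.88 and 11.53 at 6 h and 11.72 and 10.90 at 24 h. With MEB55 they were 11.92 and 11.17 at 6 h and 11.80 and 11.70 at 24 h. Vehicle 6 h replicate 2 was as high as several analogue arrays, and ST362 24 h replicate 2 sat at the vehicle level, so the groups overlapped. The difference from vehicle over both times was 0.60 for ST362 (95% interval 0.06 to 1.13, adjusted p = 0.314) and 0.74 for MEB55 (95% interval 0.21 to 1.27, adjusted p = 0.264). MEB55 and ST362 differed by 0.14, with a 95% interval of -0.39 to 0.67 that leaves room for a difference either way. At the labelled times ST362 stood 0.59 and 0.60 above vehicle at 6 h and 24 h, and MEB55 stood 0.43 and 1.04 above it, none passing the adjusted test. A dimmer CDKN1A probe gave 0.17 for ST362 and 0.35 for MEB55 over both times, and its levels correlated with those of the brighter probe at r = 0.81 over 12 arrays. The mean of both probes put the difference at 0.38 for ST362 and at 0.55 for MEB55.

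GADD45A encodes a small protein of growth arrest and DNA repair that binds PCNA and p21. Its level was 10.26 ± 0.38 in vehicle, 10.21 ± 0.17 with ST362 and 10.28 ± 0.30 with MEB55 (SD, n = 4 each). The vehicle arrays alone ran from 9.80 to 10.72 and took in every analogue array. The differences over both times were -0.05 for ST362 and 0.03 for MEB55, with 95% intervals of -0.46 to 0.35 and -0.38 to 0.43. A further GADD45A probe gave 0.00 and 0.10 and correlated with the first at r = 0.82.

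**Figure D2:**
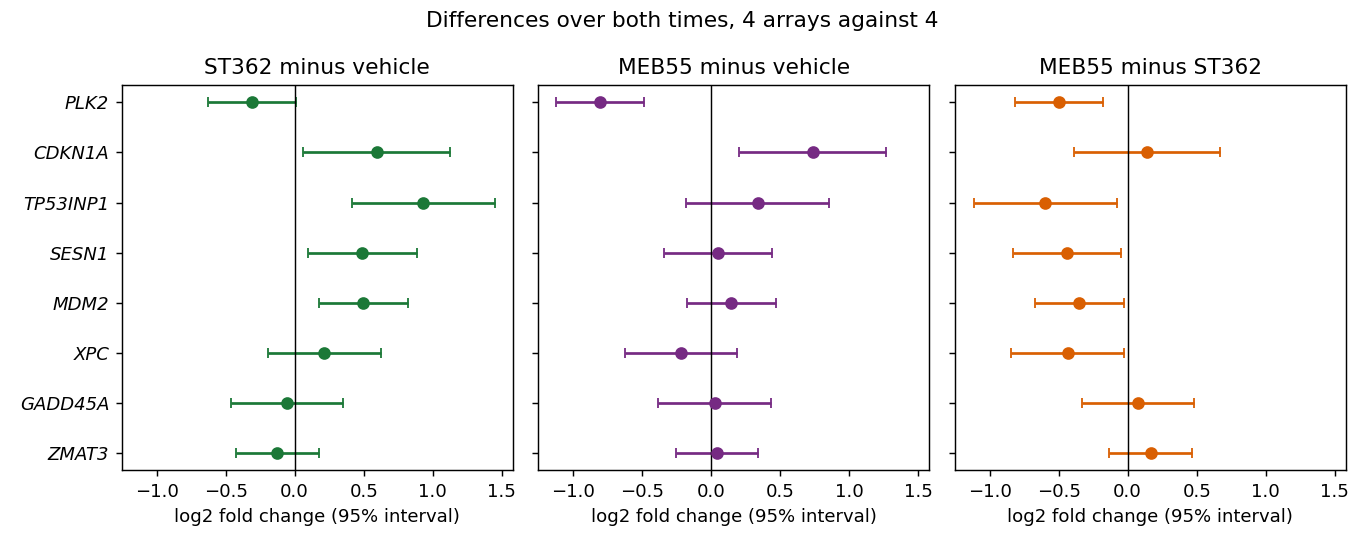
Difference in log2 level over both times (horizontal axes, points) with its 95% interval (bars) for ST362 minus vehicle, MEB55 minus vehicle and MEB55 minus ST362, 4 arrays against 4 in each, for the 8 genes. For MEB55 minus vehicle PLK2 lies at -0.80 and CDKN1A at 0.74, and in MEB55 minus ST362 the intervals of TP53INP1, PLK2, SESN1, XPC and MDM2 lie below 0.

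TP53INP1 encodes a stress-induced nuclear protein that binds p53 and aids its phosphorylation. Its vehicle levels were 5.81 and 5.93 at 6 h and 6.24 and 6.45 at 24 h. The ST362 arrays read 6.99 and 7.35 at 6 h and 7.08 and 6.74 at 24 h. The MEB55 arrays read 6.52 and 6.20 at 6 h and 5.86 and 7.20 at 24 h. All 4 ST362 arrays were above all 4 vehicle arrays. MEB55 overlapped both groups, but only its replicate 2 at 24 h, at 7.20, lay within the ST362 range. Over both times ST362 stood 0.93 above vehicle (SE 0.24, 95% interval 0.41 to 1.45, adjusted p = 0.0977), which is 1.91-fold and short of the threshold. With only the arrays of the groups compared in the fit the adjusted p was 0.0350, and without MEB55 24 h replicate 2 it was 0.0347, so that call depends on which MEB55 arrays share the estimate of the spread. Without background correction the ST362 difference was 0.56. MEB55 stood 0.34 above vehicle (95% interval -0.18 to 0.85, adjusted p = 0.700) and differed from ST362 by -0.59 (95% interval -1.11 to -0.08, adjusted p = 0.553). At 6 h the ST362 difference was 1.30 (adjusted p = 0.847) and at 24 h 0.56 (adjusted p = 0.757). The other TP53INP1 probe followed the first at r = 0.95 and gave 1.00 for ST362 and 0.32 for MEB55 over both times.

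SESN1 encodes a sestrin, which restrains mTORC1 signalling under stress. Vehicle levels were 6.37 and 6.95 at 6 h and 6.76 and 6.83 at 24 h. With ST362 they were 7.17 and 7.34 at 6 h and 6.92 and 7.45 at 24 h, and with MEB55 6.89 and 6.72 at 6 h and 6.33 and 7.18 at 24 h. In SESN1, 3 ST362 arrays were above every vehicle array, and ST362 24 h replicate 1 fell just under vehicle 6 h replicate 2. The difference over both times was 0.49 for ST362 (95% interval 0.10 to 0.88, adjusted p = 0.262) and 0.05 for MEB55 (95% interval -0.34 to 0.44, adjusted p = 0.959). Without background correction the ST362 value was 0.32. MEB55 differed from ST362 by -0.44 (95% interval -0.83 to -0.05, adjusted p = 0.567).

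MDM2, the gene of the feedback loop, was read from a dim probe whose raw signal ran from 97.8 to 134.3. Vehicle levels were 5.52 and 5.33 at 6 h and 5.09 and 5.30 at 24 h. With ST362 they were 5.52 and 5.87 at 6 h and 6.05 and 5.79 at 24 h, and with MEB55 5.39 and 5.37 at 6 h and 5.27 and 5.79 at 24 h. Replicate 1 of ST362 at 6 h was level with the highest vehicle array, and the other ST362 arrays were above all vehicle arrays. Over both times ST362 stood 0.50 above vehicle (95% interval 0.17 to 0.82, adjusted p = 0.155) and MEB55 0.15 above it (adjusted p = 0.810). MEB55 differed from ST362 by -0.35 (95% interval -0.67 to -0.03, adjusted p = 0.592). The labelled ST362 differences were 0.27 at 6 h and 0.73 at 24 h (adjusted p = 0.857 and 0.567). Without background correction the ST362 difference over both times was 0.21. A further MDM2 probe was detected on 1 array and was not tested.

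XPC encodes the protein that recognises damaged DNA in global nucleotide excision repair. Its vehicle levels were 8.96 and 8.81 at 6 h and 8.67 and 8.56 at 24 h. The ST362 arrays gave 8.87 and 8.82 at 6 h and 8.97 and 9.21 at 24 h, and MEB55 gave 8.98 and 8.18 at 6 h and 8.12 and 8.86 at 24 h. The MEB55 arrays split into a pair at the vehicle level and a pair below every vehicle array, with one of each at both labelled times, and the higher ones were the arrays high in HSPA6. Over both times the differences from vehicle were 0.22 for ST362 (adjusted p = 0.679) and -0.22 for MEB55 (adjusted p = 0.770). MEB55 differed from ST362 by -0.43 (95% interval -0.84 to -0.03, adjusted p = 0.601).

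ZMAT3 encodes an RNA-binding zinc finger protein that regulates splicing and RNA stability. Its level was 12.32 ± 0.18 in vehicle, 12.19 ± 0.24 with ST362 and 12.36 ± 0.11 with MEB55 (SD, n = 4 each). The differences over both times were -0.13 for ST362 and 0.04 for MEB55. Its 3 tested probes did not move together, with r = -0.46, 0.09 and 0.27 between pairs over 12 arrays. Another ZMAT3 probe gave 0.54 for ST362 (95% interval 0.12 to 0.96, adjusted p = 0.250) and -0.15 for MEB55, and the remaining one gave -0.07 and -0.41. No direction for ZMAT3 as a whole follows from these probes.

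Taken as counts, the 8 genes gave few calls at the labelled times. The adjusted test called 0 of the 8 for ST362 at 6 h, as it called 0% of the 12290 genes there, and likewise 0 of 8 and 0% for ST362 at 24 h, MEB55 at 6 h, MEB55 at 24 h, and MEB55 against ST362 at 6 h and at 24 h. At an unadjusted p under 0.05 in limma, ST362 had 1 gene at 6 h (TP53INP1, higher) where 6.08% of all genes passed in either direction. It had 2 at 24 h (MDM2 higher, PLK2 lower), against 8.44% of all genes. MEB55 had 1 at 6 h (PLK2, lower), against 4.89%, and 2 at 24 h (CDKN1A higher, PLK2 lower), against 5.72%. MEB55 against ST362 had 2 at 6 h (PLK2 and TP53INP1, both lower), against 2.85%, and 0 at 24 h, against 3.49%. The median of the 8 differences was 0.14 and 0.43 for ST362 at 6 h and 24 h and 0.05 and 0.07 for MEB55, while the medians of all genes lay between -0.03 and 0.01. The labelled medians moved with single arrays: leaving out replicate 1 of vehicle at 6 h took that of MEB55 at 6 h to -0.015, leaving out replicate 2 of ST362 at 6 h took that of ST362 at 6 h to 0.078, and leaving out replicate 2 of MEB55 at 24 h took that of MEB55 at 24 h to -0.32.

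Over both times the adjusted test called 0 of 8 for ST362 against 0.765% of all genes, 1 of 8 for MEB55 against 0.561%, and 0 of 8 for MEB55 against ST362, where it called 0.0244% of all genes. At an unadjusted p under 0.05 in limma, 4 of the 8 were higher following ST362 (CDKN1A, MDM2, SESN1 and TP53INP1) and 0 lower, where 7.77% of all genes were higher and 7.73% lower. Following MEB55, 1 was higher (CDKN1A) and 1 lower (PLK2), where 5.92% were higher and 6.31% lower. In MEB55 against ST362, 0 were higher and 5 lower (MDM2, SESN1, TP53INP1, PLK2 and XPC), where 3.78% were higher and 4.8% lower. None of these 5 differences passed the adjustment. The comparisons of both analogues with vehicle share the same 4 vehicle arrays. The median of the 8 was 0.35 for ST362, 0.05 for MEB55 and -0.39 for MEB55 minus ST362, and the medians of all genes were within 0.01 of 0.

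By separation of the arrays, 1 of the 8 genes had all 4 ST362 arrays above all 4 vehicle arrays (TP53INP1) and 0 had them below, where 4.83% and 4.99% of all genes did. With MEB55, 0 were fully above vehicle and 1 fully below (PLK2), where 3.93% and 3.86% of all genes were. Between the analogues, 0 had all MEB55 arrays above all ST362 arrays and 1 had them below (PLK2 again), where 1.8% and 2.12% of all genes did.

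**Figure D3:**
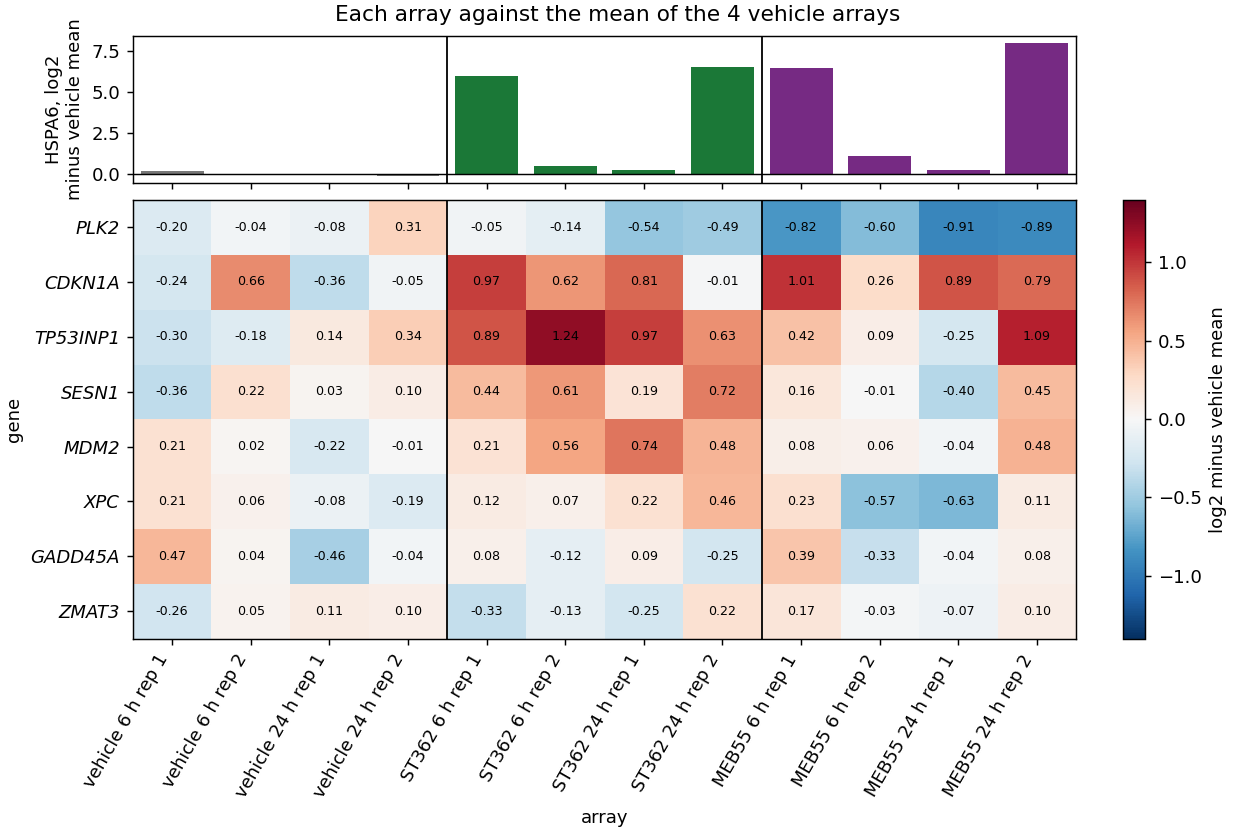
Log2 level of each of the 8 genes on each of the 12 arrays minus the mean of the 4 vehicle arrays (colour and printed value, lower panel), with HSPA6 on the same scale as bars starting at 0 (upper panel). HSPA6 stands 5.95 to 7.99 above vehicle on 1 array of each analogue and time, and PLK2 is below the vehicle mean on all 4 MEB55 arrays whether HSPA6 is high or not.

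The levels also varied between replicate arrays of the same label. With MEB55, 6 of the 8 genes (MDM2, GADD45A, SESN1, TP53INP1, ZMAT3 and XPC) were higher on the HSPA6-high array than on its replicate at both times and 0 were lower at both, where 30% of all genes were higher and 30.6% lower. The count took any difference, whatever its size. TP53INP1 read 7.20 on the HSPA6-high array at 24 h and 5.86 on its replicate. MDM2 read 5.39 and 5.37 on the same kinds of array at 6 h, and GADD45A 10.33 and 10.22 at 24 h. With ST362, 2 of the 8 were higher at both times (PLK2 and XPC) and 2 lower (MDM2 and TP53INP1), where 30.6% and 32.4% of all genes were. CDKN1A and PLK2 did not follow HSPA6 in this way with MEB55. These counts were not tested between the analogues, and the part of HSPA6 in the differences from vehicle was not tested.

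Across the 12 arrays the 8 genes did not rise and fall as one block. The median Pearson r of the 28 pairs was 0.12, and it ran from -0.49 for CDKN1A with PLK2 to 0.80 for SESN1 with TP53INP1. MDM2 followed TP53INP1 at r = 0.75. The points share treatments and arrays, so these values are descriptions. Among 12239 named genes, the one most like each member by Pearson r over the 12 arrays was STYXL1 for CDKN1A (0.97), DHTKD1 for MDM2 (0.92), CTNNBIP1 for GADD45A (0.87), PLSCR4 for SESN1 (0.95), IFTAP for TP53INP1 (0.95), GINS4 for ZMAT3 (0.91), CTDSP1 for PLK2 (0.93) and WASHC5 for XPC (0.90). Each was picked as the highest of all genes searched.

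The rest of the pathway was read from lists of p53 regulators, apoptosis targets and other targets. Of the regulators 10 were tested, and ATR, detected on 2 arrays, did not pass the detection filter. Over both times 0 of the 10 were called for either analogue, against 0.765% of all genes for ST362 and 0.561% for MEB55. The medians of the 10 were 0.05 for ST362 and 0.07 for MEB55. CHEK1, a checkpoint kinase, was -0.27 from vehicle with ST362 and -0.07 with MEB55. PPM1D, a phosphatase that switches off p53, was 0.28 and 0.10. USP28, a deubiquitinase, was 0.01 and 0.41, and HIPK2, a kinase of p53, was 0.03 and 0.24.

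Of 17 apoptosis targets 15 were tested and 0 were called for either analogue, against 0.765% of all genes for ST362 and 0.561% for MEB55. The medians of the 15 were 0.19 for ST362 and 0.06 for MEB55. TNFRSF10B, a receptor for the death ligand TRAIL, came closest. It stood 0.56 above vehicle with ST362 (SE 0.12, adjusted p = 0.0510) and 0.57 with MEB55 (SE 0.12, adjusted p = 0.0550) in limma. Its vehicle arrays ran from 8.75 to 9.10 and all 8 analogue arrays from 9.44 to 9.72, so they did not overlap. Of all genes, 4.83% had every ST362 array above every vehicle array, and 3.93% had every MEB55 array above them. The share with both was not counted, and TNFRSF10B is named for having the lowest adjusted p of its list. PMAIP1, which encodes the BH3-only protein NOXA, was 0.38 and 0.53 above vehicle, TP53I3 was 0.66 from it with ST362 and -0.10 with MEB55, and APAF1, the core of the apoptosome, was -0.17 and -0.49 from it.

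Of 22 other targets 20 were tested. Of all genes, 0.765% were called for ST362 and 0.561% for MEB55. Among the 20, ST362 had 0 called higher and 1 called lower, and MEB55 had 1 called higher and 0 lower. The medians of the 20 were 0.32 and -0.01. The one called higher with MEB55 was GDF15, a secreted stress cytokine, whose vehicle levels ran from 6.13 to 6.82. MEB55 arrays read 10.21 and 7.86 at 6 h, then 7.83 and 10.77 at 24 h. All lay above vehicle, as in 3.93% of all genes, and GDF15 was highest where HSPA6 was high. The difference was 2.67 for MEB55 (SE 0.53, adjusted p = 0.0468) and 2.46 for ST362 (adjusted p = 0.0555), and the MEB55 call was kept in 2 of 12 fits that each left out 1 array, those that left out replicate 2 of MEB55 at 6 h or replicate 1 at 24 h (adjusted p = 0.0281 to 0.142, limma). GTSE1, a protein of G2 and mitosis that binds p53, fell by 1.10 with ST362 (SE 0.21, adjusted p = 0.0378) and was -0.67 from vehicle with MEB55 (adjusted p = 0.242). Its ST362 call was kept in 4 of 12 such fits, those that left out replicate 1 of ST362 at 6 h, replicate 2 of MEB55 at 6 h or either replicate of MEB55 at 24 h (adjusted p = 0.0198 to 0.141, limma). BTG1, an antiproliferative gene, was 0.79 and 0.92 above vehicle and PLK3, a polo-like kinase of the stress response, 0.50 and 0.20, without a call.

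**Figure D4:**
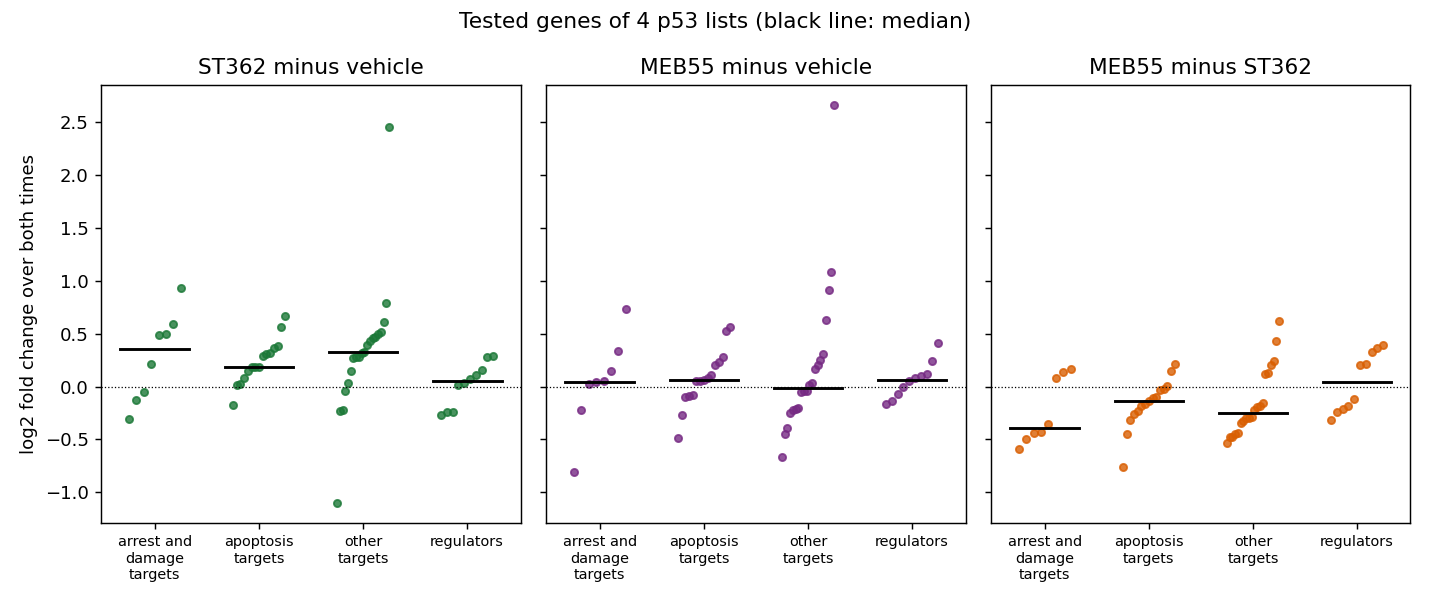
Difference in log2 level over both times (vertical axis) of each tested gene of 4 p53 lists (points, with the median as a black line) for ST362 minus vehicle, MEB55 minus vehicle and MEB55 minus ST362. The 8 arrest and damage targets have medians of 0.35, 0.05 and -0.39, and the highest points, at 2.46 and 2.67, are GDF15.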

How the data were processed

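The arrays were Illumina HumanHT-12 bead arrays of U2OS RNA, 1 per sample, grouped by the sample labels. The intensity values are mean bead signals per probe that the authors deposited from GenomeStudio (version not given) without subtracting background or normalizing. Each probe also has a deposited detection p-value, which compares it with the array's negative control beads. A further table of the authors holds quantile-normalized intensities on a linear scale and served as an alternative.

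For 47313 probes, neqc of limma 3.58.1 (R 4.3.3, offset 16) corrected the background by means of the detection p-values, quantile normalized the signals and took log2. Gene names came from the platform's probe table: 30109 probes carry 1 symbol, 8 several and 17196 none. Tests covered 22186 probes, 5729 lacking a symbol, whose detection p was under 0.05 on each array of some group. A limma fit of 6 groups (6 residual degrees of freedom) gave the labelled comparisons and a fit of 3 treatments (9) those over both times. The median residual SD was 0.230 and 0.221, and the number of arrays limits the precision. The fit was tested on simulated data. Replicate numbers did not pair the samples across all groups, though same-numbered arrays of ST362 and MEB55 varied together within a time. Named are all members, up to 4 genes per p53 list with the lowest adjusted p over both times, and the gene most like each member. The members, the lists and the comparisons over both times were chosen with earlier results of these data known. Alternatives covered background, offset, normalization, filter, variance model, array weights, block, groups fitted, probes per gene, the methods' threshold and each array left out, and a replicate block within each time was added after the data were seen. Slides are not given, so no slide block was run.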

Additional observations from a re-analysis of the deposited data

Results flagged for a closer look

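ZMAT3 on vehicle 6 h replicate 1, at 12.05, stood apart from the other 3 vehicle arrays, at 12.37 to 12.43. The gap was 0.842 of the range of the 4 arrays, above the 95% critical value of Dixon's test. It was the 1 such case among the 24 sets of 4 arrays tested, of which chance alone picks about 1 in 20.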

How the results depend on the processing

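Across 72 results (8 genes in 9 comparisons) and 26 alternatives, 1815 of 1872 values kept their direction and side of the threshold, 45 changed sign, 10 lost a call and 2 gained one. All values that changed sign belong to differences of at most 0.43 in size that were not called. The call of PLK2 for MEB55 over both times, the 1 called, became 0 with no background correction, with the authors' series values, with all probes, with no moderation of the variance and under the methods' threshold (unadjusted p under 0.05, over 2-fold, signal of at least 100), and ranged from 0 to 1 when arrays were left out. For ST362 over both times, 1 gene was called (TP53INP1) with only the groups compared, and 0 to 1 when arrays were left out. The fall of PLK2 with MEB55 over both times, 1.75-fold, could not pass a cut of over 2-fold, so that loss was set by the threshold. The methods' threshold took 1 of the 8 genes for ST362 at 6 h, where it took 113 of all 12290 genes. It took 2 of the 8 for MEB55 at 24 h, where it took 99 of all genes. When arrays were left out, the median of the 8 ran over -0.32 to 0.35 for MEB55 against vehicle at 24 h (lowest without MEB55 24 h replicate 2) and -0.52 to 0.057 for MEB55 against ST362 at 24 h (highest without MEB55 24 h replicate 1). It ran over -0.015 to 0.18 for MEB55 at 6 h (lowest without vehicle 6 h replicate 1), 0.078 to 0.20 for ST362 at 6 h, 0.29 to 0.43 for ST362 at 24 h, -0.52 to -0.084 for MEB55 against ST362 at 6 h, and over both times 0.27 to 0.37 for ST362, 0.0066 to 0.14 for MEB55 (lowest without MEB55 6 h replicate 1, highest without MEB55 24 h replicate 1) and -0.47 to -0.29 for MEB55 against ST362. The causes were not tested.

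The replicate numbers did not pair the samples across all groups: the deviations of same-numbered arrays correlated at -0.39 to 0.49 over 15 pairs of groups. With a replicate block PLK2 for MEB55 over both times was -0.80 (adjusted p = 0.0425, limma), no call among the 8 genes changed, and the genes called went from 94 to 76 for ST362 and from 69 to 54 for MEB55. Within a time, however, the same-numbered arrays of ST362 and MEB55 did vary together, with r = 0.49 at 6 h and 0.48 at 24 h. A replicate block within each time was added after the data were seen. Over both times its fit also held a term for time, so its results are not those of the block alone. It gave -0.80 for PLK2 with MEB55 (adjusted p = 0.0338) and -0.50 for MEB55 minus ST362 (adjusted p = 0.360, limma). It again changed no call among the 8 genes, and called 133 genes for ST362, 113 for MEB55 and 3 between the analogues.

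Averaging the probes of ZMAT3 turned its sign: for ST362 against vehicle to 0.18 at 6 h, 0.044 at 24 h and 0.11 over both times, for MEB55 against vehicle to -0.058 at 6 h and -0.17 over both times, and for MEB55 against ST362 to -0.24 at 6 h, -0.33 at 24 h and -0.28 over both times. Scaling to the 75th percentile gave 0.010 for CDKN1A in MEB55 against ST362 at 6 h and -0.045 for PLK2 in ST362 at 6 h, and array weights gave 0.0090 for GADD45A in ST362 over both times. Leaving out 1 array turned these signs. For MEB55 against ST362 at 6 h CDKN1A ran from -0.53 to 0.21, GADD45A ran from -0.30 to 0.42, XPC ran from -0.67 to 0.13. For MEB55 against vehicle at 6 h CDKN1A ran from -0.023 to 0.88, GADD45A ran from -0.58 to 0.14, MDM2 ran from -0.14 to 0.048, SESN1 ran from -0.15 to 0.43, XPC ran from -0.71 to 0.089. For MEB55 against ST362 over both times CDKN1A ran from -0.062 to 0.30, GADD45A ran from -0.044 to 0.20. For MEB55 against ST362 at 24 h GADD45A ran from -0.071 to 0.27, TP53INP1 ran from -1.05 to 0.29, ZMAT3 ran from -0.20 to 0.27. For MEB55 against vehicle over both times GADD45A ran from -0.13 to 0.18, SESN1 ran from -0.083 to 0.20, ZMAT3 ran from -0.046 to 0.081. For ST362 against vehicle at 24 h GADD45A ran from -0.040 to 0.38, ZMAT3 ran from -0.36 to 0.11. For ST362 against vehicle over both times GADD45A ran from -0.21 to 0.10. For ST362 against vehicle at 6 h PLK2 ran from -0.055 to 0.10, XPC ran from -0.12 to 0.031, ZMAT3 ran from -0.29 to 0.033. For MEB55 against vehicle at 24 h SESN1 ran from -0.47 to 0.38, TP53INP1 ran from -0.49 to 0.85, XPC ran from -0.49 to 0.25.

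Of all genes, 94 were called for ST362 over both times (0 to 170 with an array left out, 0 to 193 otherwise), 69 for MEB55 (12 to 54, and 1 to 113) and 3 between the analogues (0 to 3, and 0 to 42). At the labelled times 0 were called, and at most 2 with an array left out, while the methods' threshold took 113 for ST362 at 6 h, 109 at 24 h, 105 for MEB55 at 6 h, 99 at 24 h and 35 between the analogues at each time. The raw signals of MDM2, TP53INP1, SESN1 and PLK2 lay within 97.8 to 234.1, not far above the median signal of an array, and without background correction their largest differences over both times shrank, from 0.50 to 0.21 for MDM2, 0.93 to 0.56 for TP53INP1 and 0.49 to 0.32 for SESN1 with ST362, and from -0.80 to -0.49 for PLK2 with MEB55.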
